A study of Mus musculus with 12 samples.

Results

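The 9 genes Krt7, Krt8, Krt13, Krt18, Krt19, Cldn1, Pax2, Pax8 and Cd44 were taken as a set because they mark the parietal epithelium of the kidney glomerulus or belong to the keratins that epithelia with a parietal or simple character make. Of the 9 genes, 8 were measured here, out of 18194 genes in all, by 19 of the 45101 probe sets of the array. No probe set was assigned to Pax2 in the annotation used, so Pax2 is named without a value. Each measured gene was represented by its lead probe set, the one with the highest mean over the 12 arrays, and the other 11 probe sets are given beside it.

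Glomeruli were isolated with magnetic beads from male mice aged 6 to 8 weeks, serum starved, and exposed in cultures of 5000 glomeruli to murine TNF at 50 ng/ml, for 12 hours. The 4 genotypes, with 3 arrays each from independent RNA preparations, were Tnfr1,2-/- (germline deletion of both receptor genes, Tnfrsf1a tm1Mak and Tnfrsf1b tm1Mwm), Tnfr1-/- (Tnfrsf1a tm1Mak alone), Tnfr2-/- (Tnfrsf1b tm1Mwm alone) and wildtype. The single mutants are B6.129 strains, the Tnfr1,2-/- and wildtype mice came from crosses of them, and the labels give C57BL/6J as the background of all 4 groups. All 12 cultures received TNF. Genotypes were thus compared in the presence of the cytokine, and glomeruli without TNF were not analysed here. The deletions were present in every cell and throughout development, and the isolation left the glomeruli without Bowman's capsule, the layer on which most parietal cells sit.

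Keratins are the intermediate filaments of epithelia, and each filament pairs a type I keratin (Krt13, Krt18 or Krt19 here) with a type II keratin (Krt7 or Krt8). Krt8 and Krt18 are the basic pair of simple epithelia, Krt7 and Krt19 are added in ducts, and Krt13 with its usual partner Krt4 is best known from stratified, non-cornified epithelia such as that of the oesophagus. Parietal cells line Bowman's capsule and are recognised by the tight junction protein claudin-1 (Cldn1) and by the kidney transcription factors Pax2 and Pax8, while CD44, a receptor for hyaluronan, appears on them when they are activated in glomerular disease. TNF acts through receptor 1, which drives most of its inflammatory transcription, and through receptor 2, which is restricted to fewer cell types.

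The arrays were comparable in overall signal, with medians of 5.59 to 5.64 on the log2 scale. The receptor genes followed the labels, although where their probes lie relative to the deletions was not examined. Tnfrsf1a averaged 9.29 in Tnfr1,2-/- and 9.74 in Tnfr1-/- glomeruli, against 10.7 in Tnfr2-/- and 10.6 in wildtype. Tnfrsf1b averaged 5.48 in Tnfr1,2-/- and 5.33 in Tnfr2-/- glomeruli, against 7.48 in Tnfr1-/- and 7.63 in wildtype. The arrays fell into 2 sets by the log2 difference between the 3′ and 5′ beta-actin control probe sets, a sign of RNA integrity or labelling. Set 1 held 7 arrays (0.67 to 1.0) and set 2 held 5 (1.82 to 2.30), namely Tnfr1,2-/- replicates 2 and 3 and replicate 3 of each other genotype. A mean above the array median was found for 11647 of the 18194 genes, and for every measured podocyte, endothelial and mesangial marker. Of the 11 genes listed as parietal markers, 6 of them in the member set, 10 were measured and all 10 had such a mean. Their mean log2 value per array was 8.45 to 9.39 in Tnfr1,2-/-, 7.99 to 8.83 in Tnfr1-/-, 8.53 to 8.64 in Tnfr2-/- and 7.57 to 8.66 in wildtype glomeruli.

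Krt13 was the member that separated the genotypes most clearly. Its log2 values were 7.66, 7.63 and 6.93 in Tnfr1,2-/- glomeruli, 7.44, 6.84 and 7.35 in Tnfr1-/-, 5.04, 5.07 and 5.08 in Tnfr2-/-, and 4.84, 4.37 and 4.91 in wildtype. The 6 arrays without receptor 1 were all above the 6 arrays with it, which happened for 2.98% of all genes in either direction, and on the 6 arrays with receptor 1 Krt13 lay under the array median. Krt13 rose 6.47-fold in Tnfr1,2-/- glomeruli against wildtype (log2 change 2.69 ± 0.23 SE, adjusted p = 0.000106, limma with Benjamini-Hochberg adjustment over 18194 genes) and 5.66-fold in Tnfr1-/- glomeruli (2.50 ± 0.23, adjusted p = 0.000199). By p it ranked 20 and 23 among all genes in these comparisons. In bulk RNA of whole glomeruli, more cells of a type and more RNA per cell cannot be told apart, and this holds for every result below.

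Tnfr2-/- glomeruli kept low Krt13. The 3 Tnfr2-/- arrays lay just above the 3 wildtype arrays without overlap, by 0.35 ± 0.23, which did not pass the test (adjusted p = 1). Groups of 3 arrays failed to overlap for 4.94% of all genes in that comparison. Against Tnfr2-/- glomeruli, Krt13 was higher by 2.34 in Tnfr1,2-/- (adjusted p = 0.000302) and by 2.15 in Tnfr1-/- (adjusted p = 0.00057). Over all arrays, the 6 without receptor 1 exceeded the 6 with it by 2.42 ± 0.16 (adjusted p = 6.89e-06). The difference was 2.48 within array set 1 (3 arrays against 4) and 2.30 within set 2 (3 against 2), and the array set itself accounted for 0.041.

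**Figure D1:**
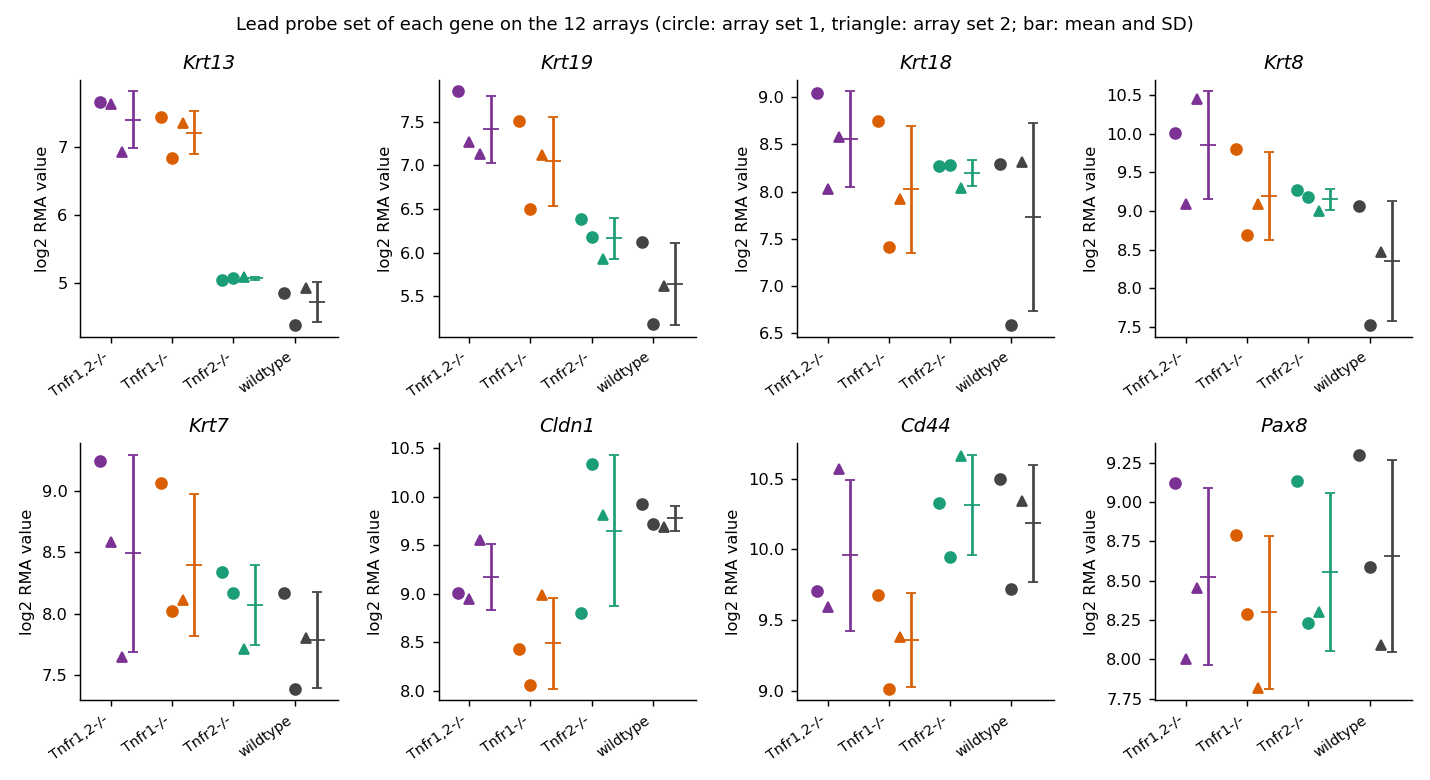
Log2 RMA value of the lead probe set of the 8 measured genes on each of the 12 arrays, by genotype, with circles for array set 1, triangles for array set 2 and bars for the mean and SD (n = 3). Krt13 is between 6.84 and 7.66 on the arrays without receptor 1 and between 4.37 and 5.08 on those with it, whereas Krt18, Krt7, Krt8 and Pax8 overlap between Tnfr1-/- and wildtype.

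The 250 bases before the annotated start of Krt13 are shown because Krt13 is the member that rose most, with those of Krt7 beside them as a keratin that did not pass the test in any comparison. Both are RefSeq sequence of build GRCm38.p6, printed 5′ to 3′ on the strand of the gene, from chr11:100121567-100121816 (minus strand) for Krt13 and chr15:101412153-101412402 (plus strand) for Krt7. Capitals mark matches to any of 5 motifs searched on both strands.
Krt13: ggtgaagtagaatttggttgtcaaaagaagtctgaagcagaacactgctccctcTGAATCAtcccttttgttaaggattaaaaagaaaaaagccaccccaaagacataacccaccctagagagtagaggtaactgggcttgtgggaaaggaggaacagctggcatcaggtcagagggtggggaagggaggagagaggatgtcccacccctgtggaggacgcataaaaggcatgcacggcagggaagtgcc
Krt7: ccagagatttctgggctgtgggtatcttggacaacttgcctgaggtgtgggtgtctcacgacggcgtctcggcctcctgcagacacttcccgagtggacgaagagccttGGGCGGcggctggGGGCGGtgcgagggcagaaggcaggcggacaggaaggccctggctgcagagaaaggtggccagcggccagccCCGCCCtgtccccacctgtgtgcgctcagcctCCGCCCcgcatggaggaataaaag
The motifs were the TATA box TATAAA, the GC box GGGCGG, the CCAAT box CCAAT, the AP-1-like pattern TGANTCA and the kappa B core GGANTTTCC, where N is any base. In this order they occur in 12.4%, 32.7%, 33.8%, 6.75% and 1.07% of the 32851 windows of the same length. Krt13 held 1 AP-1-like match, TGAATCA with A at the N, beginning 196 bases before the start, and Krt7 held 4 GC boxes. The window before a second annotated start of Krt13 held 2 AP-1-like matches, and none was in the windows of Krt7, Krt8, Krt18, Cldn1, Pax8 or Cd44. A kappa B match was in none of the 8 windows of the 7 genes, and the matches are letters in a window rather than sites shown to be bound.

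The other 2 Krt13 probe sets were dim, at 3.15 to 4.80 (1437344_x_at and 1441863_x_at, whose identifiers mark probes that may match other transcripts). On them Krt13 was higher in Tnfr1,2-/- glomeruli by 0.90 ± 0.25 and 0.78 ± 0.26 and in Tnfr1-/- glomeruli by 0.48 and 0.28, and none of these passed the test over all probe sets (adjusted p = 0.261 and 0.456 in Tnfr1,2-/-). Both had their highest values on the 2 Tnfr1,2-/- arrays of set 2, at 4.62 and 4.58 for the dimmer and 4.80 and 4.78 for the other. The large Krt13 change is therefore that of 1 probe set, 1422454_at. With the 3 Krt13 probe sets averaged the change was 1.46 in Tnfr1,2-/- (adjusted p = 0.00213) and 1.09 in Tnfr1-/- glomeruli (adjusted p = 0.0166), and both still passed.

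Krt19, the smallest type I keratin and a marker of duct-like epithelium, followed the same order at a smaller size. It measured 7.85, 7.27 and 7.13 in Tnfr1,2-/- glomeruli, 7.51, 6.50 and 7.12 in Tnfr1-/-, 6.38, 6.18 and 5.92 in Tnfr2-/-, and 6.12, 5.18 and 5.62 in wildtype. Again no array without receptor 1 fell as low as any array with it, with 6.50 and 6.38 as the nearest pair (2.98% of all genes separated in this way). Krt19 rose 3.42-fold in Tnfr1,2-/- glomeruli (1.77 ± 0.30, adjusted p = 0.0118), and over the 6 against 6 arrays by 1.33 ± 0.21 (adjusted p = 0.00431), with 1.32 within array set 1 and 1.40 within set 2. In Tnfr1-/- glomeruli it was 2.65-fold higher at an adjusted p of 0.0515, just outside the threshold of 0.05, and 11 of the 26 other settings of that comparison put it inside. Without wildtype replicate 2, the array with the lowest value of all 5 keratins, the Tnfr1,2-/- change was 1.54 and no longer passed (adjusted p = 0.0683). In Tnfr2-/- glomeruli Krt19 differed by 0.52 ± 0.30 (adjusted p = 1).

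Krt8 and Krt18, the pair of simple epithelia, and Krt7 were brighter and more variable. Krt8 measured 10.01, 9.08 and 10.45 in Tnfr1,2-/- glomeruli, 9.81, 8.69 and 9.08 in Tnfr1-/-, 9.27, 9.18 and 9.0 in Tnfr2-/-, and 9.07, 7.52 and 8.47 in wildtype. Every mutant group averaged above wildtype, by 1.49 ± 0.42 in Tnfr1,2-/- (adjusted p = 0.193), 0.84 ± 0.42 in Tnfr1-/- (0.912) and 0.80 ± 0.42 in Tnfr2-/- (adjusted p = 1), and none passed. Of the 25 other settings of the Tnfr1,2-/- comparison, 1 called Krt8, the block for the replicate number (limma, adjusted p = 0.012). The Tnfr1,2-/- and wildtype arrays of Krt8 did not overlap, as for 12.4% of all genes, with 9.08 and 9.07 as the nearest pair, and its other 2 probe sets gave 1.16 and 1.27 in that comparison. Without wildtype replicate 2 the Krt8 changes were 1.08, 0.42 and 0.38 in Tnfr1,2-/-, Tnfr1-/- and Tnfr2-/- glomeruli.

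Krt18 measured 9.05, 8.03 and 8.58 in Tnfr1,2-/- glomeruli, 8.75, 7.41 and 7.92 in Tnfr1-/-, 8.28, 8.28 and 8.04 in Tnfr2-/-, and 8.29, 6.58 and 8.32 in wildtype. Apart from wildtype replicate 2, its arrays occupied one range. Its changes against wildtype were 0.82, 0.30 and 0.47 (SE 0.46 each, none called), and without that wildtype array those of Krt18 were 0.25, -0.28 and -0.10. Krt7 measured 9.25, 8.58 and 7.65 in Tnfr1,2-/- glomeruli, 9.06, 8.02 and 8.11 in Tnfr1-/-, 8.34, 8.17 and 7.71 in Tnfr2-/-, and 8.17, 7.39 and 7.80 in wildtype. The genotypes overlapped, and the changes of Krt7 were 0.71, 0.61 and 0.29 (SE 0.39 each, none called). Leaving out replicate 1 of the mutant genotype, its highest array, brought them to 0.33, 0.28 and 0.15, and leaving out wildtype replicate 2 brought the Krt7 change in Tnfr2-/- glomeruli to 0.088. The changes of Krt18 and Krt7 also differed between the array sets, since without receptor 1 they were higher by 0.54 and 0.76 within set 1, and within set 2 by -0.0006 and 0.36.

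By count, 2 of the 8 measured members (Krt13 and Krt19) were called in Tnfr1,2-/- against wildtype, where 1.3% of all genes were called, and 1 (Krt13) in Tnfr1-/- against wildtype, where 1.2% were. None was called in Tnfr2-/- against wildtype, where 0% of genes were called and 0.704% had an unadjusted p under 0.05. In the comparison of the 6 arrays without receptor 1 with the 6 with it, 2 members were called, beside 2.52% of all genes. The median change of the 8 measured members in Tnfr1,2-/- glomeruli was 0.77, with 1.49 for the 5 keratins and -0.23 for the other 3 genes, beside -0.0012 for all genes. In Tnfr1-/- glomeruli the 5 keratins had a median of 0.84 and the other 3 genes one of -0.83, beside -0.0049 for all genes. The list of parietal markers, which shares 6 genes with the members, had a median of 0.82 in Tnfr1,2-/- glomeruli. There 7 of its 10 measured genes were higher by at least 1.5-fold and 1 lower, beside 802 and 695 of the 18194 genes. Its median was 0.31 in Tnfr1-/- glomeruli, with 3 genes higher by that much and 1 lower, beside 487 and 441 of all genes. In Tnfr2-/- glomeruli the median was 0.45, with 3 genes higher and none lower, beside 75 and 12 of all genes. The other 5 genes of the list, each a surface or cytoskeletal marker outside the member set, were not called. In Tnfr1,2-/- glomeruli they were Cdh6 at 1.70 (adjusted p = 0.519), Prom1 at 1.42 (0.387), Scin at 0.81 (0.676), Cd24a at 0.61 (0.624) and Alcam at -0.23 (adjusted p = 0.714).

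**Figure D2:**
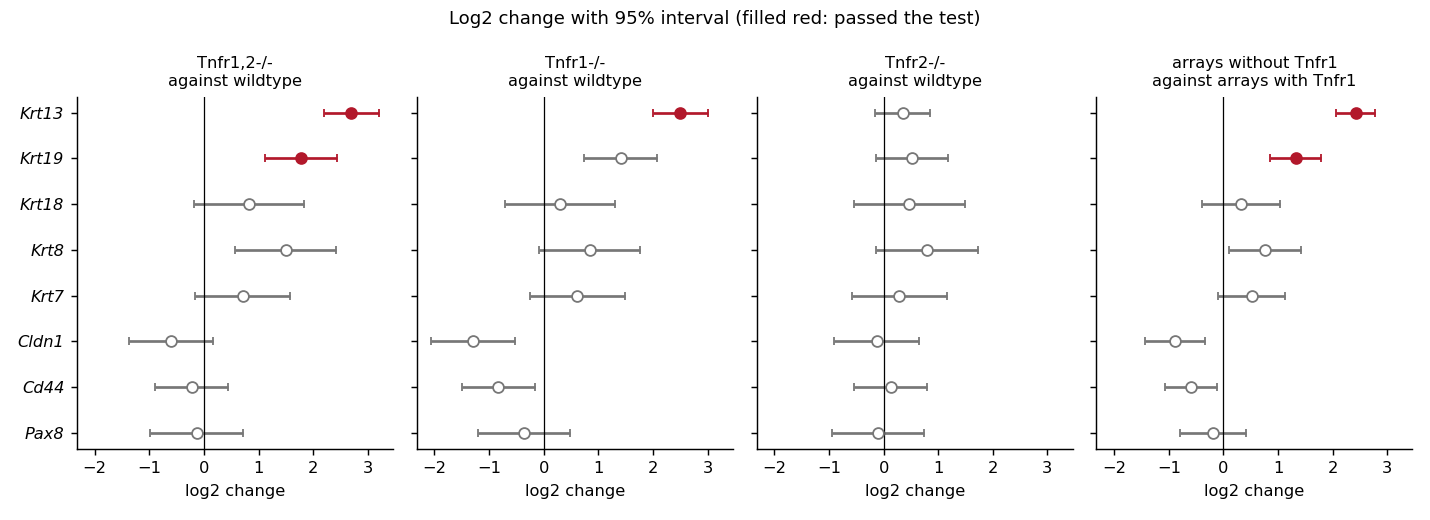
Log2 change of the 8 measured genes with its 95% interval in 4 comparisons, with filled red points for those that passed the test. Krt13 is called in 3 of them and Krt19 in 2, and in Tnfr2-/- against wildtype every interval includes 0.

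Krt13 was then set against each other keratin, array by array. The comparison was chosen with earlier results of these data known, and Krt13 had risen most on the same arrays. The p-values below therefore describe the gap and are not an independent test of it. The per-array log2 difference between Krt13 and a second keratin was compared between the 6 arrays without and the 6 arrays with receptor 1. Krt13 changed by 1.09 more than Krt19, by 2.10 more than Krt18, by 1.9 more than Krt7 and by 1.65 more than Krt8. The 2 groups of arrays did not overlap for Krt19, Krt18 and Krt7 (exact permutation test, two-sided, p = 0.00216 each, the smallest that 924 splits allow, and 0.00288 after Benjamini-Hochberg adjustment over the 4 comparisons), and overlapped for Krt8 (exact p = 0.00433, adjusted 0.00433). Against wildtype alone, Krt13 changed more than Krt19 by 0.92 in Tnfr1,2-/- and 1.10 in Tnfr1-/- glomeruli, and by -0.17 in Tnfr2-/- glomeruli. With 3 arrays against 3 no such test can go below 0.1. When the mean of all probe sets of a gene took the place of its lead probe set, the excess of Krt13 was 0.90 over Krt18 (exact p = 0.0368), 0.71 over Krt7 (exact p = 0.0498), 0.58 over Krt8 (exact p = 0.126) and -0.10 over Krt19 (exact p = 0.688). After adjustment over the 4 comparisons none of these passed (0.0996, 0.0996, 0.168 and 0.688 for the exact tests), so all 4 calls rest on the lead probe set of Krt13.

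**Figure D3:**
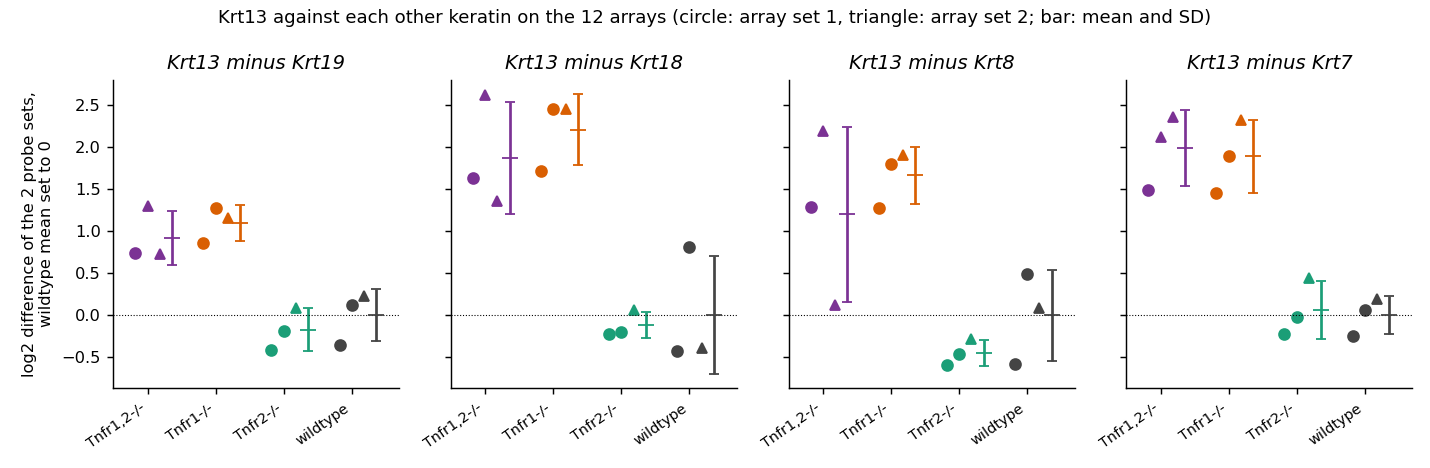
Log2 difference between the lead probe sets of Krt13 and each other keratin on each of the 12 arrays, by genotype, shifted so that the wildtype mean is 0, with bars for the mean and SD (n = 3). The arrays without receptor 1 stand above those with it in the panels of Krt19, Krt18 and Krt7, and 1 Tnfr1,2-/- array overlaps in the panel of Krt8.

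The whole keratin family gave the setting for these changes. Of the 48 keratin genes with a probe set, 18 lay above the array median, beside 11647 of the 18194 genes. In Tnfr1,2-/- against wildtype 2 keratins, Krt13 and Krt19, were called higher and none lower, beside 1.3% of all genes called. The family median change was 0.0038. The 5 keratins that were higher by at least 1.5-fold in Tnfr1,2-/- glomeruli were the 5 members. Krt13 and Krt19 lie on chromosome 11, with Krt15 between them and Krt36 on the other side of Krt13. Krt15 differed by 0.049 and Krt36 by 0.52 ± 0.21 (adjusted p = 0.489), and both were dim, at mean values of 4.40 and 4.43. Krt4, the usual partner of Krt13, had a mean of 5.48 and differed by -0.023 ± 0.20. These 3 genes were named for their position or pairing, outside the rule for named genes.

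**Figure D4:**
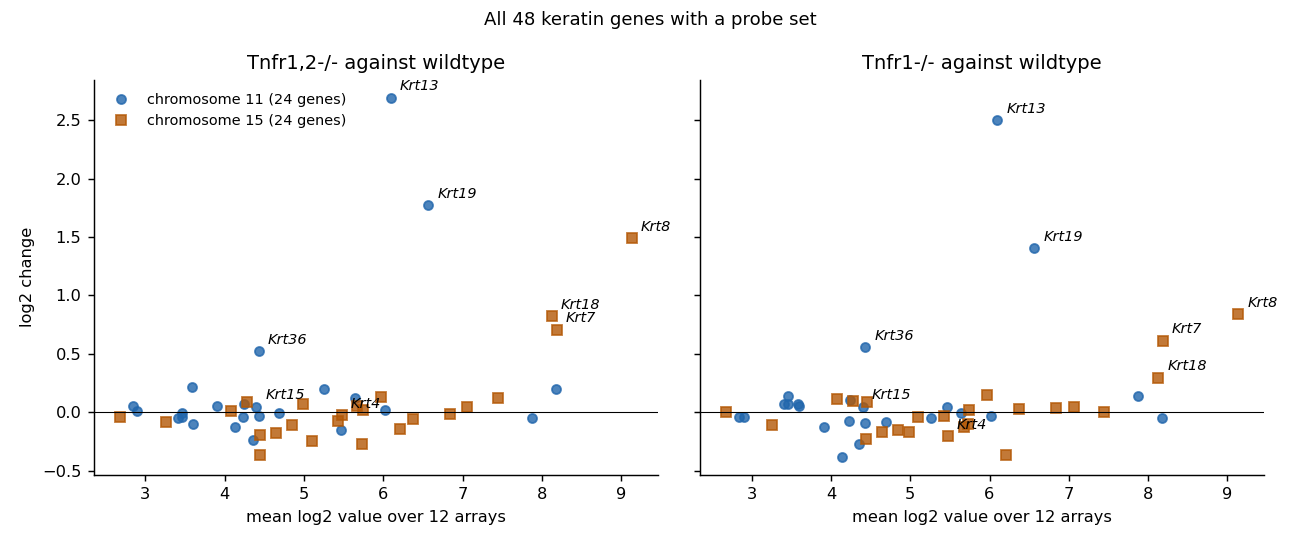
Log2 change in Tnfr1,2-/- (left) and Tnfr1-/- (right) against wildtype of the 48 keratin genes, against the mean log2 value over 12 arrays, with circles for chromosome 11 and squares for chromosome 15 (24 genes each). Krt13 and Krt19 stand apart at 2.69 and 1.77 in the left panel, with Krt15 at 0.049 and Krt4 at -0.023.

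Claudin-1, a barrier-forming tight junction protein and the most used marker of parietal cells, went the other way. Its lead probe set measured 9.01, 8.95 and 9.56 in Tnfr1,2-/- glomeruli, 8.43, 8.06 and 8.99 in Tnfr1-/-, 8.80, 10.34 and 9.82 in Tnfr2-/-, and 9.93, 9.72 and 9.69 in wildtype. Both mutants without receptor 1 lay below wildtype on every array (12.4% and 11% of all genes did not overlap in these comparisons), and a single Tnfr2-/- array, replicate 1, lay among them. The Cldn1 changes were -0.61 ± 0.35 in Tnfr1,2-/- (adjusted p = 0.695), -1.29 ± 0.35 in Tnfr1-/- (0.163) and -0.13 in Tnfr2-/- (adjusted p = 1), and none passed. SAM, the test of the study's methods, put the Tnfr1-/- change of Cldn1 past the threshold (q = 0.00688). Over 6 against 6 arrays Cldn1 was lower by 0.88 (log2 change -0.88 ± 0.25, adjusted p = 0.111), and 5 of the 24 other settings called it, among them the block for the array set (adjusted p = 0.0378) and the fit without Tnfr2-/- replicate 1 (-1.10, adjusted p = 0.0129).

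A second Cldn1 probe set, 1450014_at, measured 6.84, 6.11 and 5.64 in Tnfr1,2-/- glomeruli, 6.57, 6.45 and 5.66 in Tnfr1-/-, 6.85, 7.67 and 6.87 in Tnfr2-/-, and 8.09, 7.61 and 7.20 in wildtype. Here every array without receptor 1 was below every array with it, with 6.84 and 6.85 as the nearest pair. On lead probe sets such a separation, in either direction, held for 2.98% of all genes. The changes of this Cldn1 probe set were -1.44 ± 0.37 in Tnfr1,2-/- and -1.41 ± 0.37 in Tnfr1-/- (adjusted p = 0.182 and 0.201 over all probe sets), and -1.17 ± 0.26 over 6 against 6 arrays (adjusted p = 0.0508). It read lower on array set 2 by 0.71 whereas the lead probe set read higher there by 0.28, and within the sets its Tnfr1,2-/- change was -1.01 in set 1 and -1.33 in set 2. The remaining 2 Cldn1 probe sets were at 2.60 to 3.48 on every array and changed by at most 0.19.

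**Figure D5:**
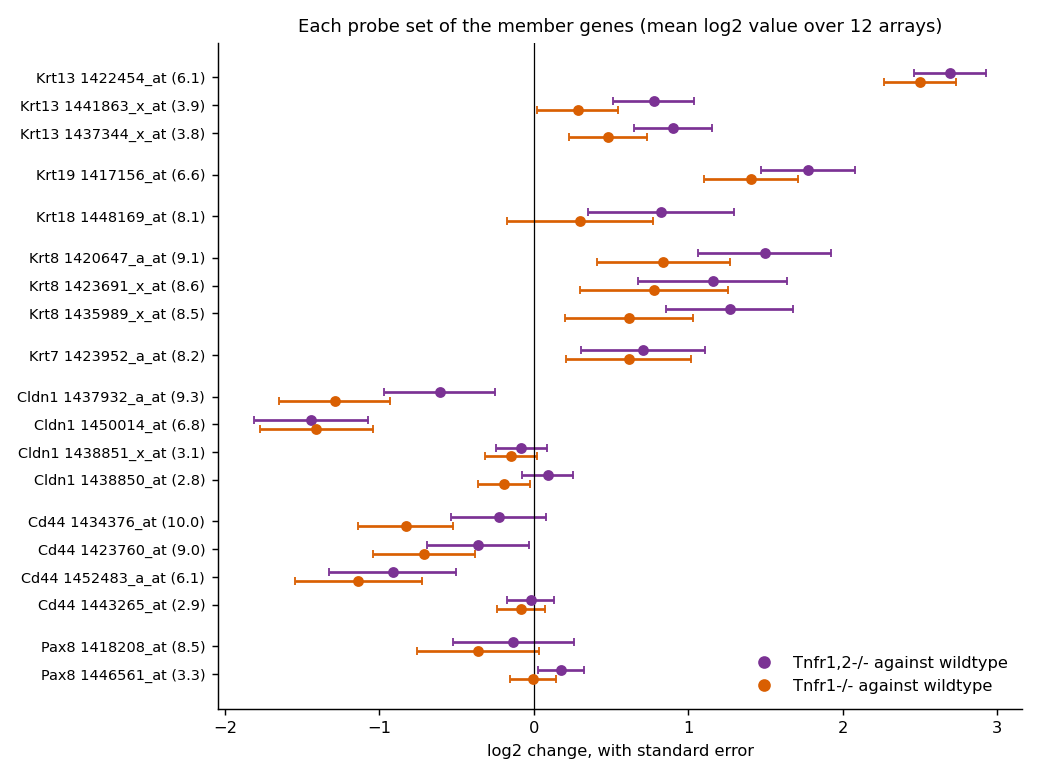
Log2 change, with its standard error, of each of the 19 probe sets of the 8 genes in Tnfr1,2-/- and Tnfr1-/- against wildtype, with the mean log2 value over 12 arrays in brackets. The lead probe set of Krt13 changes by 2.69 and its 2 dim probe sets by 0.90 or less, whereas the 3 probe sets of Krt8 lie between 0.62 and 1.49 and the 2 brighter probe sets of Cldn1 between -1.44 and -0.61.

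No claudin was called among the 20 measured in either mutant without receptor 1 against wildtype, where 1.3% and 1.2% of all genes were. The family median in Tnfr1,2-/- glomeruli was 0.13. Cldn2, a pore-forming claudin of leaky epithelia, and Cldn8 had the smallest adjusted p there (1.43, adjusted p = 0.174, and 0.74, adjusted p = 0.453). Over 6 against 6 arrays 1 claudin passed, beside 2.52% of all genes called. This was Cldn15, another pore-forming claudin, which was higher by 1.04 (adjusted p = 0.041) and was picked out once its values were known. Of 9 measured tight junction partners none was called. Cingulin (Cgn), a cytoplasmic tight junction linker, had -0.78 (adjusted p = 0.158) and Tjp1, the scaffold ZO-1, had 0.58 (adjusted p = 0.535) in Tnfr1,2-/- glomeruli. Of 13 measured desmosome and keratin linker genes none was called either, with 0.49 for plakophilin 2 (Pkp2, adjusted p = 0.706) and 0.48 for desmoplakin (Dsp, adjusted p = 0.791). Among 13 measured genes of epithelial identity none was called, and E-cadherin (Cdh1) and Epcam, the 2 with the smallest adjusted p, were at 1.17 and 1.01 in Tnfr1,2-/- glomeruli (adjusted p = 0.588 and 0.597).

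Pax8, a transcription factor of the nephric lineage that parietal cells retain, did not separate the genotypes. It measured 9.12, 8.00 and 8.45 in Tnfr1,2-/- glomeruli, 8.79, 8.29 and 7.82 in Tnfr1-/-, 9.13, 8.23 and 8.30 in Tnfr2-/-, and 9.30, 8.59 and 8.09 in wildtype. Replicate 1 was the highest array of each genotype. The changes of Pax8 were -0.13, -0.36 and -0.10 (SE 0.39 each), with 95% intervals of -0.98 to 0.71, -1.21 to 0.49 and -0.95 to 0.74. Changes within these bounds are not excluded. The test over all genes can miss larger ones, since Krt8 at 1.49 ± 0.42 was not called in Tnfr1,2-/- glomeruli. Pax8 read lower by 0.71 on array set 2, and its second probe set was dim, at 3.16 to 3.65.

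Of 10 measured genes of the Pax2 and Pax8 network, 1 was called lower in both mutants without receptor 1, beside 0.879% and 0.72% of all genes. Gdnf, the ligand that Pax2 helps to switch on in the embryonic kidney, fell by 1.49 in Tnfr1,2-/- (adjusted p = 0.0053) and by 1.11 in Tnfr1-/- glomeruli (log2 change -1.11, adjusted p = 0.0361). Ret, the receptor for that ligand, differed by -0.90 and -1.27 (adjusted p = 0.328 and 0.083). It passed over 6 against 6 arrays, at -1.15 (adjusted p = 0.0112), beside 2.52% of all genes called, and was picked out once its values were known.

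Cd44 measured 9.71, 9.59 and 10.57 in Tnfr1,2-/- glomeruli, 9.68, 9.01 and 9.38 in Tnfr1-/-, 10.33, 9.95 and 10.66 in Tnfr2-/-, and 10.49, 9.72 and 10.34 in wildtype. The Tnfr1-/- arrays were all below the wildtype arrays, as groups did not overlap for 11% of all genes there, with 9.68 and 9.72 as the nearest pair. The Tnfr1,2-/- arrays overlapped the wildtype arrays. The changes of Cd44 were -0.23 ± 0.30 in Tnfr1,2-/- (adjusted p = 0.872), -0.83 ± 0.30 in Tnfr1-/- (0.457) and 0.13 ± 0.30 in Tnfr2-/- (adjusted p = 1). Over 6 against 6 arrays Cd44 differed by -0.59 ± 0.21 (adjusted p = 0.268), and by -0.66 within each array set. There 1 of the 24 other settings called Cd44, the block for the replicate number (limma, adjusted p = 0.0267). A dimmer Cd44 probe set, 1452483_a_at, gave -0.91 in Tnfr1,2-/-, -1.14 in Tnfr1-/- and -1.03 over 6 against 6 arrays (for that last change, adjusted p = 0.157 over all probe sets).

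Among the partners of Cd44, Mmp9 fell. Mmp9, a gelatinase that CD44 can hold at the cell surface, changed by -1.85 in Tnfr1,2-/- (adjusted p = 0.00465) and by -1.99 in Tnfr1-/- glomeruli (adjusted p = 0.00375). It was the 1 gene called of 11 measured hyaluronan and CD44 partners in those comparisons, beside 1.3% and 1.2% of all genes. The hyaluronan synthase Has3 was added over 6 against 6 arrays, at -0.63 (adjusted p = 0.0367), beside 2.52% of all genes called, and was picked out once its values were known.

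The second receptor made no called difference to any member. Between Tnfr1,2-/- and Tnfr1-/- glomeruli none of the 8 was called, where 0.0055% of all genes were and 2.59% had an unadjusted p under 0.05. The difference was 0.19 ± 0.23 for Krt13 and 0.37 ± 0.30 for Krt19, and it was largest for Cldn1 (0.68 ± 0.35), Krt8 (0.65 ± 0.42) and Cd44 (0.60 ± 0.30), each at an adjusted p of 0.919. The difference was above 0 for all 8 members, and the comparison rests on the same 6 arrays for all of them. Over the 6 arrays without and the 6 arrays with receptor 2 none of the members passed, beside 0.0275% of all genes (0.967% with an unadjusted p under 0.05), and Krt8 came first at 0.73 ± 0.30 (adjusted p = 1). No member was called for a difference in the effect of receptor 1 by the presence of receptor 2 (interaction, adjusted p = 0.998 each, 0% of genes called and 1.35% with an unadjusted p under 0.05). The interaction estimate was 0.81 ± 0.50 for Cldn1, 0.47 ± 0.43 for Cd44 and -0.16 ± 0.32 for Krt13. In Tnfr1,2-/- against Tnfr2-/- glomeruli and in Tnfr1-/- against Tnfr2-/- glomeruli, 1 member was called, Krt13, beside 1.39% and 1.2% of all genes, and Krt19 was higher by 1.25 (adjusted p = 0.0886) and 0.88 (adjusted p = 0.393).

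The genes whose pattern over the 12 arrays was most like that of Krt13, of 10895 with a mean log2 value of at least 6, were Hopx (Pearson r = 0.98), Vstm4 (0.96), Ppp1r3c (0.96), Npr3 (0.96) and Nmb (0.96). The most opposite were Vcam1 (-0.98), Cxcl2 (-0.98), Icam1 (-0.98), Gbp3 (-0.98) and Gbp2 (-0.98), which are adhesion molecules, a chemokine and guanylate-binding proteins. These correlations are a description of 12 arrays in 4 genotypes that were normalized together. After the genotype means were removed, r was 0.76 for Hopx and between 0.075 and 0.49 for the other 4 like genes, and between -0.81 (Vcam1) and -0.60 (Gbp2) for the 5 opposite ones. Krt19 ranked 19 among these genes (0.93), Krt7 551 (0.63), Krt8 625 (0.60) and Krt18 1729 (0.41). Cldn1 (-0.66) and Cd44 (-0.54) correlated negatively with Krt13 over the 12 arrays, and Pax8 only weakly so (-0.19). With the genotype means removed, r with Krt13 was -0.012 for Cldn1, 0.0017 for Cd44 and 0.069 for Pax8. Within genotypes Krt18 and Krt8 varied together (0.87 over 12 arrays), and so did Krt19 and Krt7 (0.85), while Krt13 had 0.78 with Krt7, 0.74 with Krt19, 0.60 with Krt18 and 0.20 with Krt8.

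Markers of the other cell types that a glomerular preparation can hold were read on the same arrays. None of 8 urothelial markers, 7 proximal tubule markers or 8 distal nephron and collecting duct markers was called in a mutant against wildtype. The mean log2 value of the urothelial list was 5.28 to 5.62 in Tnfr1,2-/-, 5.34 to 5.59 in Tnfr1-/-, 5.26 to 5.55 in Tnfr2-/- and 5.49 to 5.53 in wildtype glomeruli, under or near the array median. That of the distal nephron and collecting duct list was 5.81 to 5.91 in Tnfr1,2-/-, 5.73 to 6.35 in Tnfr1-/-, 5.61 to 5.92 in Tnfr2-/- and 5.41 to 5.90 in wildtype glomeruli. Podocyte markers, the glomerulus's own epithelium, were at 11.4 to 11.7 in Tnfr1,2-/-, 9.996 to 11.6 in Tnfr1-/-, 10.5 to 11.3 in Tnfr2-/- and 10.8 to 11.3 in wildtype glomeruli, with none of 5 called. The podocyte mean of every Tnfr1,2-/- array lay above those of wildtype, while Tnfr1-/- and Tnfr2-/- overlapped wildtype.

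The endothelial list was above wildtype in each mutant, with a mean of 9.18 to 9.63 in Tnfr1,2-/-, 9.44 to 9.94 in Tnfr1-/- and 9.37 to 9.64 in Tnfr2-/- glomeruli, against 8.77 to 9.15 in wildtype. On this mean no mutant array overlapped the wildtype arrays, with 9.18 and 9.15 as the nearest values. Single genes did not overlap for 12.4%, 11% and 4.94% of all genes in these comparisons, and the share for list means was not computed. The median changes of the 7 endothelial genes were 0.57, 0.69 and 0.54. In Tnfr1,2-/- glomeruli 2 of the 7 were higher by at least 1.5-fold and none lower, while Pecam1 was at -0.40 ± 0.81 and Ehd3 at -0.0063 ± 0.24. Of the endothelial genes Kdr, a receptor for VEGF, was called in Tnfr1-/- (1.09, adjusted p = 0.0414) and not in Tnfr1,2-/- glomeruli (0.75, adjusted p = 0.229). The mesangial list averaged 10.65 to 11.1 in Tnfr1,2-/-, 10.8 to 11.2 in Tnfr1-/- and 10.65 to 11.01 in Tnfr2-/- glomeruli, against 10.62 to 10.95 in wildtype. Of its 6 measured genes Itga8, an integrin of mesangial cells, was called in Tnfr1-/- (1.40, adjusted p = 0.00524) and not in Tnfr1,2-/- glomeruli (0.94, adjusted p = 0.0562). Against wildtype, 1.2% of all genes were called in Tnfr1-/- and 1.3% in Tnfr1,2-/- glomeruli. The neutrophil list, all under the array median, averaged 3.94 to 4.26 in Tnfr1,2-/- and 4.10 to 4.18 in Tnfr1-/- glomeruli, against 4.29 to 4.47 in wildtype. The lymphocyte list averaged 5.65 to 6.03 in Tnfr1-/- glomeruli, against 5.50 to 5.64 in wildtype. The part of podocyte, parietal, duct, endothelial, mesangial or blood cell number in the keratin changes was not tested.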

How the data were processed

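Isolated glomeruli of 4 genotypes were measured on 12 Affymetrix mouse genome arrays. The authors scanned the arrays and normalized them together by the robust multichip average (RMA Express), and the deposited log2 values were used as they are; the genome build of the probe annotation is not given in the sources used here. Probe sets with exactly 1 gene symbol (34958) gave 18194 genes, with the brightest probe set on average standing for each gene. Models over 12 arrays were fitted with limma 3.58.1 in R 4.3.3 (eBayes without trend), with Benjamini-Hochberg adjustment over all genes. Called means an adjusted p under 0.05 and at least 1.5-fold. The fit was tested on simulated data. Intervals are at 95%. Array precision is limited by 3 arrays per genotype.

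The members, lists and tests were chosen with earlier results of these data known. Named genes are all members, list genes called in Tnfr1,2-/- or Tnfr1-/- against wildtype (at most 4 a list, otherwise the 2 with the smallest adjusted p), and the 5 most and least correlated with Krt13. Alternatives were probe set choice, SAM, the arrays fitted, trend, weights, fold threshold, centring, cyclic loess, a dim filter, blocks and leaving out each array; single array sets were added after the data were seen. Promoter windows came from RefSeq, for 7 of the 8 measured genes.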

Additional observations from a re-analysis of the deposited data

How the results depend on the processing

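Krt13 was called in Tnfr1,2-/- and in Tnfr1-/- against wildtype in all alternatives run. In Tnfr1,2-/- against wildtype the 2 called members became 1 with only the 6 arrays compared, where Krt19 had an adjusted p of 0.0502, 1 to 2 with an array left out, and 3 with the replicate block (Krt13, Krt19 and Krt8, the last at an adjusted p of 0.012). In Tnfr1-/- against wildtype the 1 called member became 3 with SAM (Krt13, Krt19 and Cldn1), 2 with the trend, array weights, median centring, cyclic loess, the dim filter, the replicate block and the array set block (Krt13 and Krt19), and 1 to 2 with an array left out. Without Tnfr2-/- replicate 1 the 2 were Krt13 and Cldn1. In the 6 against 6 comparison by receptor 1 the replicate block gave 5 in place of 2 (Krt13, Krt19, Krt8, Cldn1 and Cd44, with Krt8 at an adjusted p of 0.0436). In Tnfr1,2-/- against Tnfr2-/- SAM, the replicate block and the array set block gave 2 in place of 1 (Krt13 and Krt19). In Tnfr1-/- against Tnfr2-/- the replicate block gave 3 in place of 1 (Krt13, Krt19 and Cd44), and leaving out an array gave 1 to 2. Over all genes, Tnfr1-/- against wildtype had 219 calls, and 437 with the replicate block or 470 with the array set block. Same-numbered arrays correlated at -0.23 to 0.73, with 15 of 18 pairs over 0.1, and differently numbered arrays at -0.76 to 0.51. The remaining same-numbered pairs all held Tnfr1,2-/- replicate 2, at -0.13 with wildtype, -0.23 with Tnfr1-/- and -0.0046 with Tnfr2-/-. That array was in set 2 and the other replicate 2 arrays in set 1. Because not all 18 pairs were over 0.1, the main fits did not pair by number. Most pairs were alike, so a shared replicate effect was not removed from the main fits, and the replicate block results allow for it. When all probe sets of a gene were averaged, Krt13 changed by 1.46 in Tnfr1,2-/- and 1.09 in Tnfr1-/- glomeruli and was still called, while its excess was -0.10 over Krt19, 0.58 over Krt8, 0.71 over Krt7 and 0.90 over Krt18, none past the test after adjustment over the 4, as the dim Krt13 probe sets then weigh equally. Among the changes against wildtype, none of them called, that turned sign were those of Pax8 in Tnfr1,2-/- glomeruli (0.023 with averaged probe sets, 0.11 with the array set block, and -0.43 to 0.19 with an array left out). With an array left out, so did Krt18 in Tnfr1-/- (-0.28 to 0.61, main 0.30), and in Tnfr2-/- glomeruli Krt18 (-0.10 to 0.76, main 0.47), Cldn1 (-0.47 to 0.30), Pax8 (-0.39 to 0.22) and Cd44 (-0.11 to 0.31). The causes of these shifts were not tested. Krt7 and Krt8 have no value where probe sets of several transcripts were left out. Precision was limited by 3 arrays per genotype, and array sets were unevenly spread over genotypes. Standard errors against wildtype were 0.23 for Krt13 and 0.30 to 0.46 for the other members, of which only Krt19 was called in the main fits.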
